A study of Mus musculus with 12 samples.

Results

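The 9 genes described here encode enzymes of methionine and one-carbon metabolism in the liver: Mat1a, Gnmt, Bhmt, Ahcy, Cbs, Cth, Pemt, Nnmt and Shmt1. They were chosen by gene symbol as members of the methionine cycle, of transsulfuration and of the reactions that spend or supply methyl groups, and all 9 were found among the 50559 genes of the count tables. Liver RNA of C57BL/6N mice was sequenced, with 3 libraries labelled as biological replicates in each of 4 groups. NCD mice ate normal chow and HFD mice a high-fat diet with 60% of its energy from fat, both for 12 weeks. HFD+C1 and HFD+C2 mice ate the high-fat diet and were injected intraperitoneally with compound C1 or C2 at 5 mg/kg per day over those 12 weeks. The title of the series calls the compounds CYP4A inhibitors, and the labels name no vehicle injection for the NCD and HFD mice and no age for any group. The p-values measure the spread between these libraries.

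Methionine is converted in hepatocytes to S-adenosylmethionine, the methyl donor of most methylation reactions. Each transfer of the methyl group leaves S-adenosylhomocysteine, which is split into adenosine and homocysteine. Homocysteine is either methylated back to methionine, with betaine or a folate as donor, or passed through transsulfuration towards cysteine and glutathione.

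Libraries held 4281210 to 32124248 reads counted in genes, and a library's count of any of the 9 genes lay between 817 and 150069. Levels are given as CPM, counts scaled to a common total of reads in genes, with TMM factors over all 12 libraries. NCD replicate 1 stood apart: 58.15% of its reads were not counted in a gene and 7 hepatocyte markers summed to 28853 CPM there, against 75032 and 79155 CPM in the other NCD libraries and 96698 to 116402 CPM in the HFD libraries. Much of that sum was Alb, at 9192 CPM in NCD replicate 1 and 75415 CPM at most in HFD. Between the diets the 7 markers did not move one way, with 5 log2 changes above 0 and those of Serpina1c (-0.63) and Cps1 (-0.33) below it, none of them called. HFD+C2 replicate 1 had 47.09% of reads outside genes, and the other 10 libraries had 27.3% to 40.7%. Results that rest on NCD replicate 1 are therefore given with and without it. Hepatocyte markers had the highest sum of the 9 marker lists in every library, NCD replicate 1 included. In contrast, 4 adipocyte markers summed to at most 0.806 CPM and 5 pancreatic acinar markers to at most 0.431 CPM, with Prss2 at 0 throughout. In whole tissue, fewer cells of a type and less RNA per cell cannot be told apart.

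Per kilobase of transcript, which allows levels of different genes to be compared, Bhmt and Gnmt stood highest and Shmt1 lowest. In HFD liver, Bhmt was at 1943 ± 232 CPM per kb (SD, n = 3) and Gnmt at 1535 ± 109 CPM per kb, well above Mat1a at 563 ± 12.7 CPM per kb. Ahcy (287 ± 36.8), Pemt (244 ± 27.9) and Cbs (228 ± 14.5 CPM per kb) followed, and these neighbours overlapped in their spread. Nnmt (132 ± 9.37) and Cth (122 ± 11.3 CPM per kb) also overlapped in their spread, above Shmt1 at 67.4 ± 2.79 CPM per kb. In NCD liver the order at the top was turned, with Gnmt at 1597 ± 443 and Bhmt at 1382 ± 446 CPM per kb, whose spreads overlapped. Levels of Bhmt and Ahcy are uncertain on any scale, because 61.49% and 76.98% of the 50-base stretches of their transcripts also occur in other annotated transcripts, among them Gm5096 and Bhmt-ps1 for Bhmt and Gm4737 for Ahcy. Of the other 7 genes only Shmt1 shared any, at 4.81%, with Smcr8 on the opposite strand.

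Stretches before the RefSeq transcription starts of Gnmt and Bhmt are shown because these were the highest of the 9 genes per kilobase. Each holds the 100 bases before RefSeq's transcription start, written in the direction of the gene, from RefSeq on build GRCm38.p6, minus strand, at chr17:46729166-46729265 for Gnmt and chr13:93637759-93637858 for Bhmt. In GENCODE the Bhmt gene extends beyond the RefSeq start to 93637961, so the Bhmt stretch lies inside the gene as GENCODE annotates it. Capitals mark CCAAT, here on the opposite strand as ATTGG, and CAAAGGTCA, a site of the kind read by nuclear receptors.
Gnmt: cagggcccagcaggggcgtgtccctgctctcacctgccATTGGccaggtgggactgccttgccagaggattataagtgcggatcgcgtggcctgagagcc
Bhmt: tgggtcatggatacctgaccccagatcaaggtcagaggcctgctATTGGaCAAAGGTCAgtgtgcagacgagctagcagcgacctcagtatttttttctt
These and 2 more motifs were searched on both strands in the 250 bases before each start, and the choice of motifs was made after the sequences had been read. RefSeq promoters were matched for 6 of the 9 genes, all but Mat1a, Cth and Nnmt. Pemt has 2 promoters in that table, which makes 7 for the 6 genes. CCAAT occurred in 6 of the 7, at least 1 for each gene, and in 33.8% of 32851 promoters of the table. CAAAGGTCA occurred in Bhmt alone of the 6 and in 0.426% of promoters. The E-box, CACGTG, occurred in Cbs and in 6.02% of promoters. The exact TATA box string, TATAAA, occurred in none of the 6 and in 12.4% of promoters. Variants of it were not searched, and the Gnmt stretch above holds TATAAG. These matches are descriptions of the sequence.

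The high-fat diet was compared with chow first. No member passed the test after adjustment over all genes, which called 836 of 13864 genes (6.03%), 359 of them higher (2.59%) and 477 lower (3.44%) in HFD. Nnmt had the largest difference, with a fitted fold of 0.44, Mat1a had the highest positive value, and Cth the next lowest after Nnmt. The unadjusted p was under 0.05 for these 3 of 9 members, beside 28.9% of all genes. On the CPM scale over 12 libraries the groups did not overlap for 4 of 9, beside 38.4% of all genes. Mat1a, Bhmt and Cbs were higher in HFD, as were 25.4% of genes, and Nnmt was lower, as were 12.9%. The fit scaled its own 6 libraries after filtering, which put diet log2 changes lower than the CPM levels do. Sqor, of sulfur amino acid breakdown, averaged 233 CPM in NCD and 260 CPM in HFD with a fitted log2 change of 0.0. Bhmt and Cbs separated narrowly, and whether they do so on the fit's scale was not tested. Of the 9 log2 changes 5 were above 0, beside 48.5% of all genes. Without NCD replicate 1, Ahcy (-0.20) and Pemt (-0.092) fell below 0, and Mat1a, Bhmt and Cbs stayed above it. With all 6 libraries the median of the 9 was 0.06, and that of all genes tested was -0.02.

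**Figure D1:**
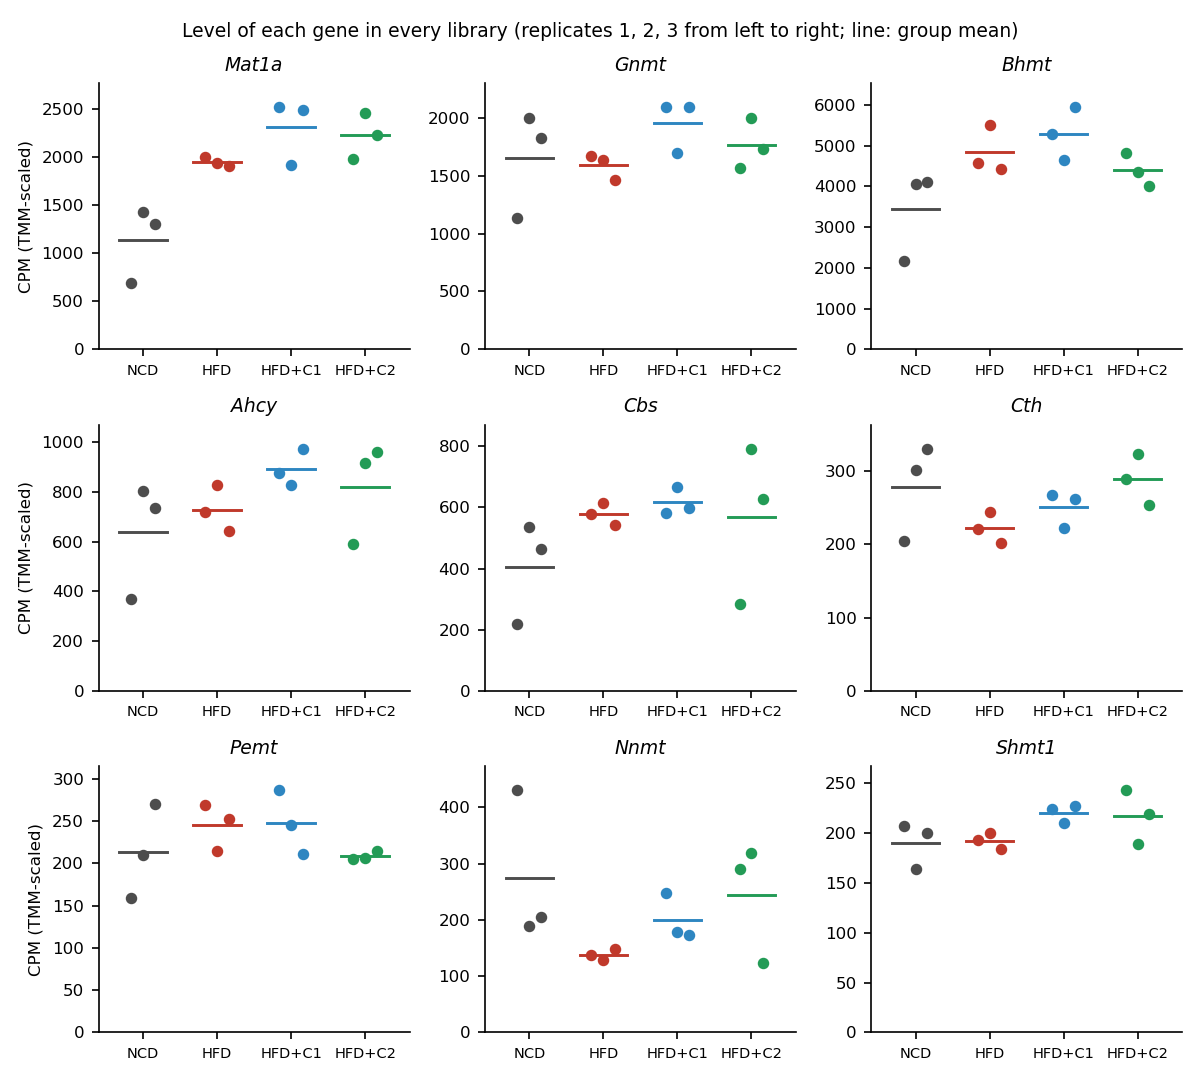
Level of each of the 9 genes in every library, as TMM-scaled CPM on a linear axis from 0, with 3 points for the replicates of each group and a line at the group mean. NCD replicate 1 is the lowest chow library for 7 genes, Mat1a, Gnmt, Bhmt, Ahcy, Cbs, Cth and Pemt, and the highest for Nnmt and Shmt1.

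Mat1a (chr14:41105035-41124412, plus strand, GRCm38) encodes the liver enzyme that makes S-adenosylmethionine from methionine. Its level was 695, 1428 and 1308 CPM in the NCD libraries and 1998, 1942 and 1912 CPM in the HFD libraries. Every HFD library was above every NCD library, and NCD replicate 1 was the lowest of all. The fitted log2 change was 0.63 (SE 0.25, 95% interval 0.05 to 1.21, unadjusted p = 0.0359, adjusted p = 0.148). Without NCD replicate 1 it was 0.39 with an adjusted p of 0.105, so a higher value in HFD was seen with and without that library and passed the threshold in neither fit.

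Gnmt (chr17:46725664-46729168, minus strand) encodes the enzyme that passes the methyl group of S-adenosylmethionine to glycine. It stood at 1133, 1999 and 1825 CPM in NCD and at 1668, 1637 and 1459 CPM in HFD. HFD libraries lay inside the chow range. The log2 change was -0.20 (95% interval -0.71 to 0.31, adjusted p = 0.58). It was -0.39 (adjusted p = 0.111) without NCD replicate 1 and -0.041 (adjusted p = 0.918) without NCD replicate 2.

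Ahcy (chr2:155059310-155074497, minus strand), which splits S-adenosylhomocysteine, was at 369, 806 and 737 CPM in NCD and at 719, 828 and 641 CPM in HFD. These ranges overlapped. Its log2 change was 0.06 (95% interval -0.56 to 0.67, adjusted p = 0.911), and -0.20 (adjusted p = 0.447) without NCD replicate 1.

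Bhmt (chr13:93616675-93637961, minus strand) encodes the enzyme that uses betaine to methylate homocysteine. Its level was 2160, 4069 and 4097 CPM in NCD and 4579, 5500 and 4436 CPM in HFD. Although the groups did not overlap on the CPM scale, the log2 change of 0.35 (95% interval -0.24 to 0.94) had an adjusted p of 0.392. Without NCD replicate 1 the log2 change was 0.13.

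Cbs (chr17:31608894-31637238, minus strand) encodes the enzyme that joins homocysteine and serine, the entry to transsulfuration. It was at 219, 536 and 465 CPM in NCD and at 577, 615 and 541 CPM in HFD. The highest chow library reached almost to the lowest HFD library. Its log2 change was 0.37 (95% interval -0.28 to 1.02, adjusted p = 0.41). It was 0.088 without NCD replicate 1 and 0.62 (adjusted p = 0.184) without NCD replicate 2.

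Cth (chr3:157894248-157925077, minus strand) encodes the next enzyme of that route, which releases cysteine from cystathionine. Levels were 204, 302 and 330 CPM in NCD and 221, 243 and 202 CPM in HFD. NCD replicate 1 lay among the HFD libraries and the other NCD libraries above them. The log2 change was -0.47 (SE 0.20, 95% interval -0.92 to -0.02, unadjusted p = 0.0424, adjusted p = 0.16). Without NCD replicate 1, Cth passed the test at -0.63 with an adjusted p of 0.0148, in a fit that called 13.7% of all genes. Adjusted p ranged from 0.0148 to 0.411 over the 6 fits that left out 1 library each, and the other 5 did not call it.

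Nnmt (chr9:48591877-48605153, minus strand) encodes the enzyme that methylates nicotinamide at the expense of S-adenosylmethionine. Its level was 431, 190 and 205 CPM in NCD and 137, 128 and 148 CPM in HFD. All HFD libraries were below all NCD libraries, and NCD replicate 1 was about 2 times as high as the other chow libraries. The fitted log2 change was -1.18 (SE 0.34, 95% interval -1.97 to -0.40), a fold of 0.44, with an unadjusted p of 0.00795 and an adjusted p of 0.0724. Without NCD replicate 1 the change was smaller and passed the test, at -0.64 with an adjusted p of 0.0123, where 13.7% of all genes passed. It also passed without NCD replicate 2, at -1.39 with an adjusted p of 0.0475, where 8.89% of all genes passed. In the 17 alternatives Nnmt was lower in HFD each time, from -1.44 to -0.64, and was called in 3 of 11 other settings, each of which called 12.7% to 17.4% of all genes, and in 2 of the 6 fits without 1 library. How far the low hepatocyte marker level of NCD replicate 1 bears on these values was not tested.

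**Figure D2:**
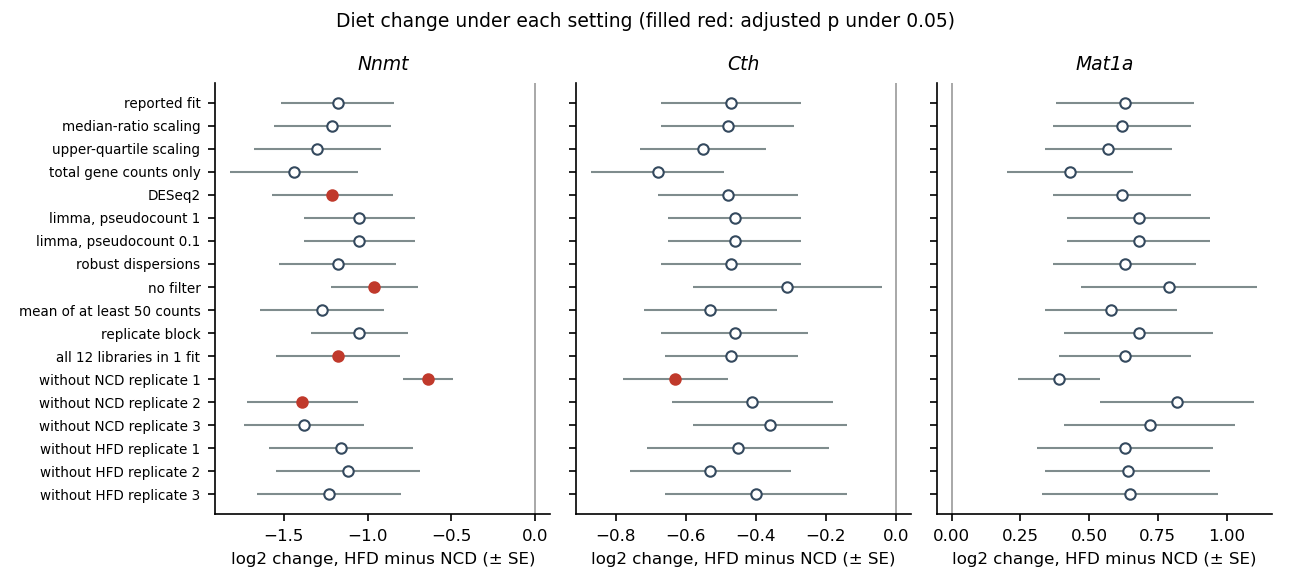
Log2 change from NCD to HFD of Nnmt, Cth and Mat1a, with its SE, in the reported fit, under 11 other settings and with each library left out. Filled red points passed an adjusted p under 0.05. Nnmt stays below 0 under each of them, Cth is called once and Mat1a never.

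Pemt (chr11:59970614-60046489, minus strand), which makes phosphatidylcholine by methylating phosphatidylethanolamine, was at 159, 210 and 271 CPM in NCD and at 269, 214 and 252 CPM in HFD. Shmt1 (chr11:60788104-60811718, minus strand), the cytosolic enzyme that takes a carbon from serine into the folate pool, was at 207, 164 and 200 CPM in NCD and at 193, 200 and 184 CPM in HFD. Both genes overlapped between the diets. Their log2 changes were 0.06 for Pemt (95% interval -0.42 to 0.53, adjusted p = 0.878) and -0.15 for Shmt1 (95% interval -0.56 to 0.27, adjusted p = 0.617). Without NCD replicate 1 they were -0.092 for Pemt and -0.041 for Shmt1, and without NCD replicate 2 Shmt1 was at -0.24. For Shmt1 the means over libraries, 190 CPM in NCD and 193 CPM in HFD, differ in the opposite direction from the fit.

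Ratios between members within a library do not depend on scaling. After the ratio of Mat1a to Gnmt reads had been noticed in the counts, all 36 ratios between the 9 genes were computed. NCD and HFD did not overlap in 22 of the 36, beside 36.3% of all pairs of genes with reads in each of the 6 libraries. The 36 ratios share genes and are no independent results, and a ratio does not show which of its genes differed.

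Mat1a to Gnmt, the enzyme that makes S-adenosylmethionine against one that spends it, was 0.613, 0.714 and 0.716 in the NCD libraries. HFD libraries gave 1.20, 1.19 and 1.31. With C1 the ratio was 1.21, 1.14 and 1.19, and with C2 it was 1.26, 1.23 and 1.29. Chow libraries, NCD replicate 1 included, lay below every other library. On the log2 scale the gap between the highest NCD and the lowest HFD library was 0.73, and 9.81% of all gene pairs had a gap at least as wide. Mat1a to Nnmt had the widest gap of the 36, at 0.78: the ratio was 1.61, 7.51 and 6.38 in NCD and 14.5, 15.2 and 12.9 in HFD. Cbs to Cth, the first against the second step of transsulfuration, was 1.07, 1.78 and 1.41 in NCD and 2.61, 2.53 and 2.68 in HFD.

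**Figure D3:**
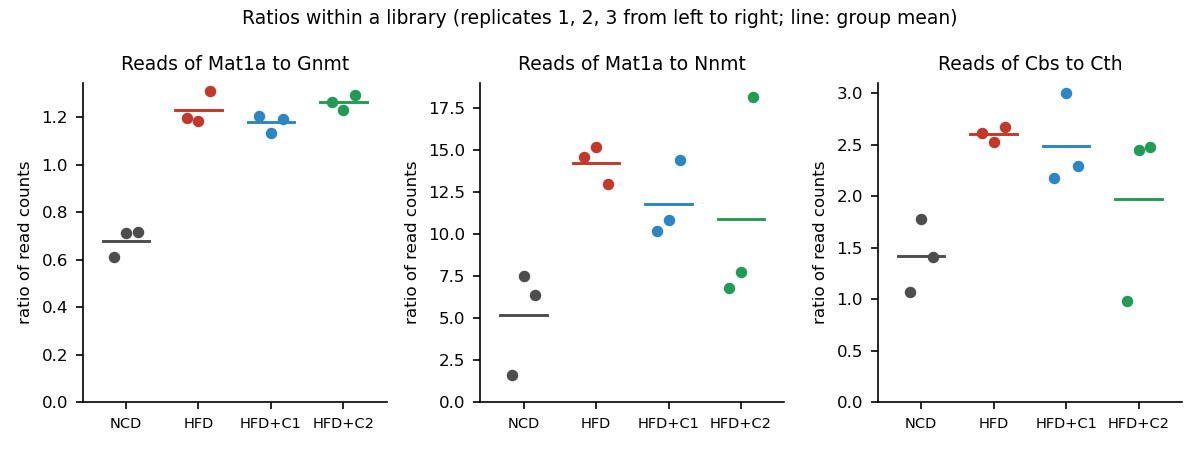
Ratio of the read counts of 2 genes in each library, with 3 points for the replicates of each group and a line at the group mean, on linear axes from 0. Mat1a to Gnmt stays at or below 0.716 in NCD and at or above 1.14 in the other 9 libraries. Mat1a to Nnmt and Cbs to Cth are spread more widely within HFD+C2.

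Compound C1 was compared with the high-fat diet alone. None of the 9 genes passed the adjusted test, which called 7 of 13358 genes (0.0524%), all lower. All 9 log2 changes were above 0, as were 51.2% of all genes, and their median was 0.22 beside 0.01 for all genes tested. Of the 7 hepatocyte markers 6 were also above 0 under C1, with a median of 0.19 and none called, and their part in the members' values was not tested. Unadjusted p was under 0.05 for Nnmt, Gnmt and Ahcy, 3 of 9, beside 7.75% of all genes. HFD and HFD+C1 did not overlap for 3 members, Nnmt, Gnmt and Shmt1, beside 12.3% of all genes, and all 3 were higher, as were 5.5%.

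Under C1, Nnmt was at 248, 178 and 174 CPM, against 137, 128 and 148 CPM in HFD. Each C1 library was above each HFD library, with replicate 1 the highest. The log2 change was 0.56 (SE 0.15, 95% interval 0.24 to 0.88), a fold of 1.47, with an unadjusted p of 0.00228 and an adjusted p of 0.295. Of the 17 alternatives only the fit without a filter on low counts called it, with an adjusted p of 0.00673, beside 0.69% of all genes. Without HFD+C1 replicate 1 the log2 change was 0.37 (adjusted p = 0.583).

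Gnmt under C1 stood at 2088, 1693 and 2091 CPM, above the 1459 to 1668 CPM of HFD, with a log2 change of 0.32 (SE 0.13, 95% interval 0.05 to 0.60, adjusted p = 0.56). Ahcy was at 876, 826 and 974 CPM under C1, of which replicate 2 lay within the HFD range. Its log2 change was 0.31 (SE 0.13, 95% interval 0.03 to 0.59, adjusted p = 0.588). Shmt1, at 224, 210 and 228 CPM, was above every HFD library by a small margin, with a log2 change of 0.22 (95% interval -0.02 to 0.45, adjusted p = 0.691).

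Mat1a was at 2521, 1923 and 2493 CPM under C1, and replicate 2 fell inside the HFD range. Its log2 change was 0.27 (95% interval -0.02 to 0.55, adjusted p = 0.682). The remaining genes had smaller values, 0.19 for Cth, 0.15 for Bhmt, 0.11 for Cbs and 0.03 for Pemt, with adjusted p from 0.789 to 0.981. Over the 6 fits without 1 library, Bhmt ran from 0.05 (without HFD+C1 replicate 3) to 0.25 (without HFD replicate 2), Cbs was lowest at 0.062 (without HFD+C1 replicate 2) and Pemt changed sign in 2.

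Compound C2 at the same dose and time was compared with the high-fat diet alone in the same way. None of the 9 genes was called, and 3 of 13503 genes were (0.0222%), all lower. Of the 9 log2 changes 6 were above 0, as were 52.2% of all genes, and the median was 0.18 beside 0.02 for all genes tested. Of the 7 hepatocyte markers 4 were above 0 under C2, with a median of 0.11 and none called, and their part was not tested. Nnmt was the 1 member with an unadjusted p under 0.05, beside 6.89% of all genes, and Cth the 1 member whose groups did not overlap, beside 13.7% of genes, or 6.2% for higher ones.

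Nnmt under C2 was at 291, 318 and 123 CPM. Replicates 1 and 2 were above every HFD library and replicate 3 below every one of them. The log2 change was 0.84 (SE 0.32, 95% interval 0.13 to 1.55, unadjusted p = 0.0253, adjusted p = 0.695), and of the 17 alternatives only the fit without a count filter called it, with an adjusted p of 0.0354, beside 0.531% of all genes.

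Cth stood at 289, 323 and 253 CPM under C2, above the 202 to 243 CPM of HFD. Its log2 change was 0.39 (SE 0.18, 95% interval -0.01 to 0.78, unadjusted p = 0.0533, adjusted p = 0.695). Cbs was the most scattered gene, at 284, 792 and 628 CPM, with replicate 1 below all HFD libraries and the others above them. Its log2 change was -0.01 (95% interval -0.74 to 0.72, adjusted p = 0.995), and 0.31 with an adjusted p of 0.473 without HFD+C2 replicate 1.

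The other 6 genes overlapped with HFD. Pemt was at 206, 206 and 215 CPM under C2, with a log2 change of -0.22 (95% interval -0.59 to 0.15). Mat1a (0.20), Gnmt (0.16), Ahcy (0.18) and Shmt1 (0.18) were above 0 and Bhmt (-0.13) below it, with adjusted p from 0.776 to 0.885 over these 5. These values moved with single libraries. Without HFD+C2 replicate 2, Mat1a was at 0.12 and Gnmt at 0.059. Ahcy ran from 0.064 (without HFD+C2 replicate 3) to 0.37 (without HFD+C2 replicate 1). Shmt1 was at 0.093 without HFD+C2 replicate 1, and Bhmt at -0.016 without HFD replicate 2.

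**Figure D4:**
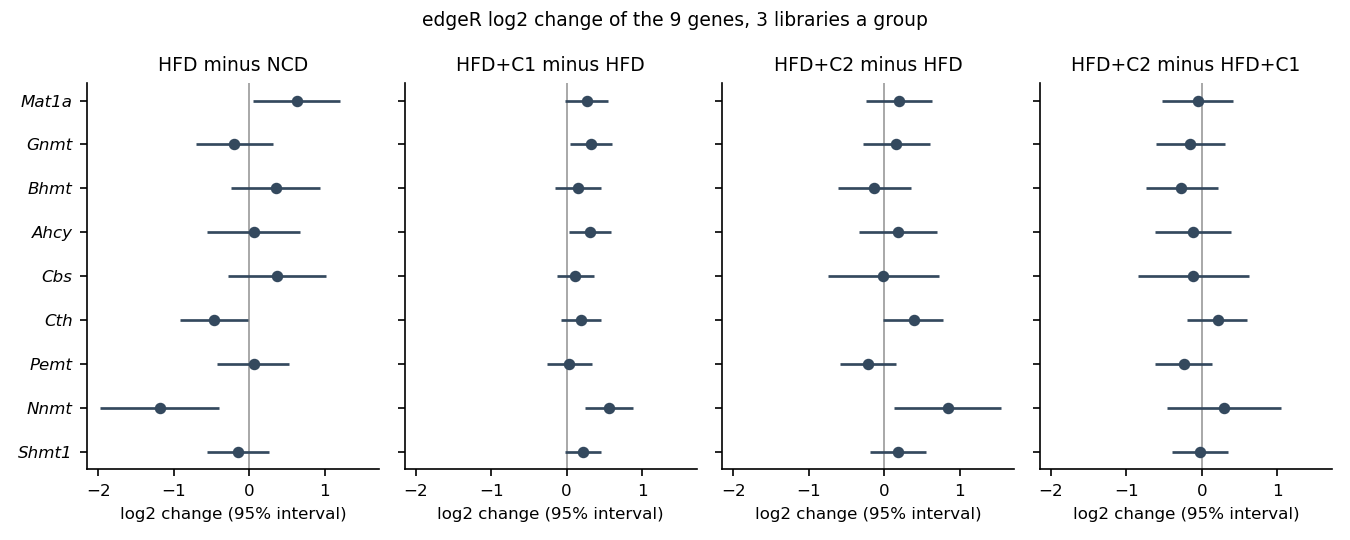
Log2 change of each of the 9 genes with its 95% interval in the 4 comparisons, 3 libraries a group. Points are edgeR estimates. Nnmt lies lowest for the diet, at -1.18, and highest under C1 and C2, at 0.56 and 0.84; these 3 comparisons share the same 3 HFD libraries, so their values are not independent.

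The level of Nnmt, the member with the largest change in each of those 3 comparisons, was set beside that of macrophage markers. Summed over 7 Kupffer cell and macrophage genes, the markers were at 150 to 231 CPM in NCD and 149 to 198 CPM in HFD. Under C1 the sum was 233 to 319 CPM and under C2 194 to 431 CPM. For the diet 2 of the 7 had log2 changes above 0, with a median of -0.53. NCD replicate 1 held the highest chow sum, 231 CPM. The other NCD libraries, at 178 and 150 CPM, lay inside the HFD range, and marker changes were not fitted without NCD replicate 1. Under each compound all 7 were above 0, with medians of 0.74 for C1 and 0.78 for C2, and none was called in these 3 comparisons. Within C1, Nnmt was highest in replicate 1 and the marker sum in replicate 2. Within C2, Nnmt was highest in replicate 2 and the sum in replicate 1, so the libraries did not rank alike. Medians of T cell markers (-0.59 for the diet, 0.13 for C1, 0.12 for C2) and cholangiocyte markers (-0.44, 0.33 and 0.08) had the same signs. T cell genes reached 2.93 CPM at most. The part of these markers in the values of Nnmt was not tested.

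C1 and C2 were then compared directly, with p-values adjusted over all genes and 9 members compared. No member was called and none of 13229 genes (0.0%) passed in edgeR, while 608 genes (4.6%) but no member had an unadjusted p under 0.05 and DESeq2 called 3. None of the 9 members separated the 2 groups, beside 11.8% of all genes. Of the 9 log2 differences, C2 minus C1, 2 were above 0, beside 51.7% of all genes. They ran from -0.27 for Bhmt to 0.29 for Nnmt, with adjusted p from 0.841 to 0.982. Their 95% intervals reached from -0.85 (Cbs) to 1.05 (Nnmt), which leaves folds between 0.554 and 2.07 within the intervals. Without HFD+C2 replicate 2 the value of Nnmt was 0.051, and without HFD+C2 replicate 3 it was 0.62. Bhmt was at -0.16 without HFD+C1 replicate 3. The count above 0 also moved with single libraries: without HFD+C2 replicate 1, Mat1a (0.018), Ahcy (0.068) and Cbs (0.20) joined Cth and Nnmt above 0. Narrower intervals were those of Shmt1 (-0.39 to 0.35) and Pemt (-0.62 to 0.14). Direct comparison thus gave no difference past the threshold and does not show that the compounds act alike on these genes.

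Ratios between members separated C1 from HFD in 3 of 36 pairs, beside 13.1% of all gene pairs, and C2 from HFD in 5 of 36, beside 13.6%. Between the compounds 3 of 36 were separate, beside 11.8%. The share under C2 is near that of all gene pairs. Of the 36 ratios Bhmt to Cth, the betaine route against the end of transsulfuration, had the widest gap under C2, at 0.32 on the log2 scale. How many of all gene pairs reach that gap was not computed. Bhmt to Cth was 20.7, 22.6 and 21.9 in HFD and 16.6, 13.5 and 15.8 under C2.

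Another 78 genes of the same metabolism, in 8 lists, were read in the same fits. For the diet 6 of the 73 tested passed, 2 higher and 4 lower, beside 6.03% of all genes, and their median log2 change was 0.06. No gene was called in the other methionine cycle genes (0 of 10), in betaine breakdown (0 of 7) or in nicotinamide handling (0 of 9). The lists were compiled with results of these data known and serve as a description.

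Csad, which turns the cysteine product cysteine sulfinate towards taurine, fell most. It was at 202, 187 and 189 CPM in NCD and at 36.1, 31.9 and 36.6 CPM in HFD. Every HFD library was far below every chow library. The log2 change was -2.63 (SE 0.18, adjusted p = 0.000969), a fold of 0.162, and Csad was called in all 11 other settings and all 6 fits without 1 library. It stood at 39.0, 26.9 and 32.1 CPM under C1 and at 47.2, 29.9 and 38.2 CPM under C2, with no call against HFD. The other 10 genes of its list, transsulfuration and sulfur amino acid breakdown, were not called.

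The remaining calls lay 1 or 2 to a list. Inmt, a methyltransferase of indole amines, fell from 1211, 1104 and 946 CPM to 581, 427 and 574 CPM, a log2 change of -1.21 (SE 0.22, adjusted p = 0.0299). Chka, which starts the choline route to phosphatidylcholine beside that of Pemt, fell from 68.5, 64.5 and 52.6 CPM to 28.1, 33.5 and 34.0 CPM, a log2 change of -1.12 (SE 0.20, adjusted p = 0.0254). Neither gene's groups overlapped.

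Mthfs, a folate-cycle enzyme, rose from 7.33, 5.63 and 7.33 CPM to 20.1, 18.0 and 15.2 CPM, with a log2 change of 1.21 (adjusted p = 0.0254). Both polyamine synthases changed, in opposite directions: Srm, which makes spermidine, rose by 0.90 on the log2 scale (adjusted p = 0.0426) and Sms, which makes spermine, fell by 1.33 (adjusted p = 0.046). Srm was at 5.94 to 9.04 CPM in NCD and 14.9 to 17.5 CPM in HFD, and Sms at 9.25 to 18.0 CPM in NCD and 5.02 to 6.90 CPM in HFD. Both were called in 8 of 11 other settings. Apart from Csad, these calls were lost in 3 or 4 of the 6 fits without 1 library, in each case when any HFD library was left out. Adjusted p then reached 0.183 for Mthfs, 0.182 for Inmt, 0.212 for Srm, 0.221 for Sms and 0.194 for Chka. Those fits without an HFD library called 23 to 131 genes in all. Over the 6 fits the log2 changes ran from 1.12 to 1.32 for Mthfs, from -1.32 to -1.06 for Inmt, from 0.76 to 1.00 for Srm, from -1.56 to -0.93 for Sms and from -1.25 to -0.99 for Chka.

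**Figure D5:**
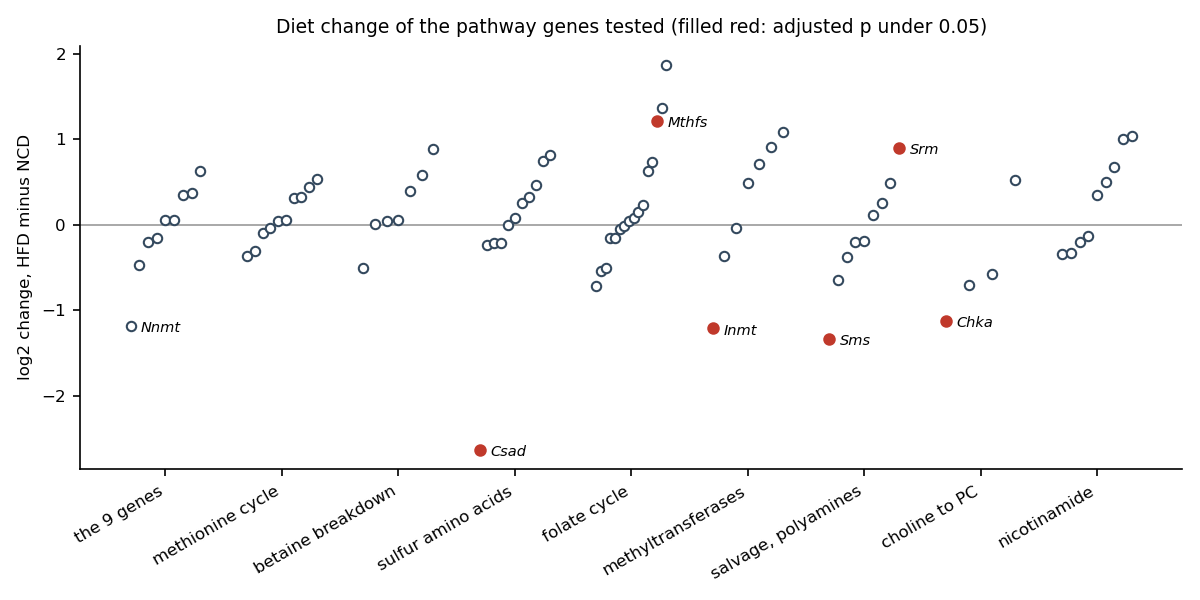
Log2 change from NCD to HFD of the 9 genes and of the tested genes of 8 other lists, 1 point a gene and sorted within a list. Filled red points passed an adjusted p under 0.05. Csad, at -2.63, lies apart from all others.

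Under the compounds none of 74 tested list genes was called, with medians of 0.05 under C1 and 0.02 under C2 beside 0.01 and 0.02 for all genes. Under C1 the smallest p in each direction belonged to Mthfd1 (log2 change 0.36, unadjusted p = 0.029) and Srm (-0.29, 0.0465). Among genes higher under C2 it belonged to Ggh (0.53, 0.0743), and between the compounds to Ggh (0.57, 0.0529) and Fpgs (-0.41, 0.0278). Without HFD+C2 replicate 1, which held 26.2 CPM of Ggh against 16.0 and 12.8 CPM in the other C2 libraries, these log2 values of Ggh were 0.19 and 0.21. Adjusted p was 0.574 or higher in these 5 cases.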

How the data were processed

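The authors deposited 3 tables, NCD with HFD, HFD with HFD+C1 and HFD with HFD+C2, which hold whole-number read counts per gene symbol although their names call them normalized. The 3 HFD columns were identical in the tables (0 cells differed). Per the labels' protocols, total liver RNA was made into libraries with an automated kit. Trimmomatic 0.39, STAR 2.7, DESeq2 and build mm10 are named in the submitters' processing notes; annotation, strand use and filters are not given in the sources used here. The 4 count lines that name no gene held 27.3% to 58.15% of a library's reads and were kept out. A count of 3 corresponds to 0.0934 to 0.701 CPM.

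Each comparison was fitted on its 6 libraries with edgeR 4.0.16 (quasi-likelihood, TMM, mean of at least 10 counts, Benjamini-Hochberg over all genes tested, calls at an adjusted p under 0.05) in R 4.3.3. Alternatives used limma 3.58.1, DESeq2 1.42.0, other scalings and filters, and left out each library. The fit was first tested on simulated counts with known changes.

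The members and lists were chosen with earlier results of these data known. Named genes were the members and, from the 8 lists pooled, every called gene or else the smallest p in each direction; pooling was settled after the list results had been seen. A gene that this rule names under C2 is not reported here. Genes like a member were the 3 with the smallest root mean square difference of centred log2 CPM over 12 libraries, for the 2 members with the largest diet change. GENCODE M21 (GRCm38) gave coordinates and transcript lengths. Lengths use the longest RefSeq-matched coding transcript, a rule changed after Cbs had come out longer under the first.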

Additional observations from a re-analysis of the deposited data

Results flagged for a closer look

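In HFD+C2 replicate 1, 47.09% of reads were not counted in a gene, against 31.86% to 32.95% in the HFD libraries that were its controls. NCD replicate 1, a chow library, had 58.15%. No comparison used this measure. This measure was examined with its values already known. HFD+C2 replicate 1 also had the lowest Cbs, Mat1a, Gnmt, Ahcy and Pemt levels of its group and the highest of Bhmt and Shmt1. Hepatocyte markers summed to 89192 CPM there, against 161327 and 116435 CPM in the other C2 libraries. Macrophage markers summed to 431 CPM, against 255 and 194 CPM.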

How the results depend on the processing

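Of 153 gene-and-setting values a comparison for the 9 genes, 139 (diet), 150 (C1), 150 (C2) and 146 (C2 against C1) kept their direction and their side of the threshold. For the diet the count of genes called was 2298 with DESeq2, 361 with limma at a pseudocount of 1, 4493 with no filter, 524 with a mean of at least 50 counts, 483 with the replicate block, 2418 with all 12 libraries in 1 fit, and 23 to 1838 without 1 library. Members called were 1 (Nnmt) with DESeq2, no filter and all 12 libraries, where 16.6%, 12.7% and 17.4% of all genes were called, and 0 to 2 without 1 library, the 2 without NCD replicate 1, where 13.7% were. Genes of the 8 lists called were 21 with DESeq2, 19 with no filter, 20 with all 12 libraries and 1 to 20 without 1 library. Scaling to total gene counts moved the median log2 change of all genes from -0.02 to -0.24 and the calls to 241 higher and 864 lower, and upper-quartile scaling moved the median to -0.11. Ahcy then changed sign, to -0.14 and -0.0083, as did Pemt, to -0.15 and -0.017, and Shmt1 with no filter, to 0.043. Without 1 library Ahcy ran from -0.20 to 0.26 and Pemt from -0.092 to 0.24.

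For C1, 64 genes were called with DESeq2, 206 with no filter, 36 with the replicate block, 0 with all 12 libraries (313 unadjusted) and 2 to 102 without 1 library, the latter without HFD replicate 2; 1 member, Nnmt, was called with no filter. For C2 these were 35, 152, 3, 0 (728 unadjusted) and 0 to 27, the latter without HFD+C2 replicate 1, and again 1 member, Nnmt, with no filter. Between the compounds DESeq2 called 3, no filter 162 and the fits without 1 library 0 to 1. Without 1 library Pemt ran from -0.09 to 0.13 under C1 and Cbs from -0.34 to 0.31 under C2. Between the compounds Mat1a ran from -0.18 to 0.018, Ahcy from -0.24 to 0.068, Cbs from -0.44 to 0.20 and Shmt1 from -0.12 to 0.065. The causes were not tested. Same-numbered libraries correlated at -0.22 to 0.29 in their deviations and not each correlated best with its own number, so the numbers were not taken as pairs, and the block called no member. The depth of NCD replicate 2, the shallowest, limits low genes most.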

Other observations

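Among the 10112 genes that averaged 50 counts or more, the patterns closest to Nnmt across the 12 libraries were those of Hspa5, an endoplasmic reticulum chaperone gene, Slc12a2, an ion cotransporter gene, and Zbtb6. Each differed from Nnmt by a root mean square of 0.30 on the log2 scale, against 0.54 for Nnmt about its own mean. Hspa5 was at 2000.4, 840.7 and 1072 CPM in NCD and at 741, 927 and 898 CPM in HFD, so it shared the high value of NCD replicate 1. The closest to Mat1a were Sec14l1 and Fbp1, a gluconeogenesis gene, at 0.12 each and Yars2 at 0.13, against 0.50 for Mat1a itself. Fbp1 was at 462, 825 and 797 CPM in NCD and at 1446, 1229 and 1357 CPM in HFD. Likeness over 12 libraries is a description.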
